A study of Mus musculus with 18 samples.

Results

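The comparison is of mouse cortex 24 h after transient middle cerebral artery occlusion with sham-operated cortex, both from animals in which neurons had received a short hairpin RNA against Tiparp. It rests on 6 of the 18 libraries of the series, 3 named R24h_T (occlusion) and 3 named Sham_T (sham surgery), chosen by their group labels. All 6 were made from cortex on the operated side of C57BL/6J males aged 8 to 10 weeks that weighed 24 to 26 g. Every animal, sham included, had AAV-SYN-shRNA-TIPARP injected into the left lateral ventricle 4 weeks before surgery; this is an adeno-associated virus whose synapsin promoter is active in neurons, so the hairpin was not directed to glia, vessels or blood cells. In the occlusion the artery that supplies lateral cortex and striatum is blocked and then reopened. The values are FPKM, fragments scaled by transcript length and library total, for 37319 genes. Of these, 13509 reached 1 FPKM in at least 3 of the 6 libraries and were tested. The labels do not say that the 3 libraries of a group came from separate mice, so the p-values measure only how far libraries differ, which may be technical.

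When blood returns to ischaemic cortex, dying neurons release signals that activate microglia and astrocytes, draw monocytes and neutrophils from the blood, and induce interferon-responsive and antigen presentation genes. Neurons themselves carry immediate early genes, transcription factors and effectors that are switched on within minutes by synaptic activity through calcium and the factor CREB. Tiparp, also called PARP7, is a mono-ADP-ribosyltransferase that is induced by the aryl hydrocarbon receptor and restrains that receptor.

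Where 3 values of a group are given, they stand in the order of its library numbers, 1 to 3. Tiparp (ENSMUSG00000034640) was at 3.99, 5.00 and 3.00 FPKM in R24h_T, against 4.17, 4.95 and 4.57 FPKM in Sham_T. The groups overlapped, with means of 4.0 ± 0.997 FPKM in R24h_T and 4.56 ± 0.391 FPKM in Sham_T (SD, n = 3 each). The difference of -0.17 on the log2(FPKM + 1) scale did not pass an exact two-sided permutation test (p = 0.5, where 3 libraries against 3 cannot go below 0.1). Since both groups carry the hairpin, these values say nothing about how far it lowered Tiparp.

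The genes that rose after occlusion in this arm included Gfap, the chemokine gene Ccl12, Gbp2, Gbp3 and leukocyte genes, and those that fell included Nr4a1, Egr1, Egr4 and Adora2a. A total of 30 genes passed limma at an adjusted p under 0.05, which is 0.222% of those tested. Of these, 18 rose (0.133%) and 12 fell (0.0888%), and 1934 genes had an unadjusted p under 0.05. Far more genes had groups that did not overlap: the 3 R24h_T values lay above the 3 Sham_T values in 1875 genes (13.9%) and below them in 1119 genes (8.28%). Over all genes tested, 59.8% of differences were above 0 and the median was 0.06. Of the rises, Ccl12, Gbp2, Gbp3, Fcgr4, H2-Q4, AW112010, Fyb, Trim47, AC125167.1 and Gm25540 were under 1 FPKM in every Sham_T library. They were tested only because R24h_T was high, and 147 of the 13509 genes were that low in sham. Of the falls, Adora2a, Car12, Clic6, 1700016P03Rik and the Map2k7 model that passed were under 1 FPKM in every R24h_T library. These were tested only because Sham_T was high.

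The 3 occlusion libraries were unlike each other. The first principal component of the 6 libraries held 50.8% of the variance and placed R24h_T at 30.7, 36.3 and -5.03, against -19.8, -20.8 and -21.4 for Sham_T. R24h_T3 therefore stood nearest the sham libraries, and its mean correlation with them across genes was 0.973, against 0.937 for R24h_T1 and 0.932 for R24h_T2. The SD over the 3 libraries had a median over genes of 0.222 in R24h_T and 0.103 in Sham_T on the log2 scale. Without R24h_T3, 996 genes passed, 724 higher and 272 lower, and all 30 genes were among them; leaving out any 1 of the other 5 libraries left between 1 and 14 genes. Mitochondrially encoded genes took 29.2%, 35.1% and 41.4% of summed FPKM in R24h_T, against 40.8% to 41.3% in Sham_T. Read totals are not known, and a rough relative depth from the lowest values lay between 1.0 and 1.04 times that of Sham_T1.

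**Figure D1:**
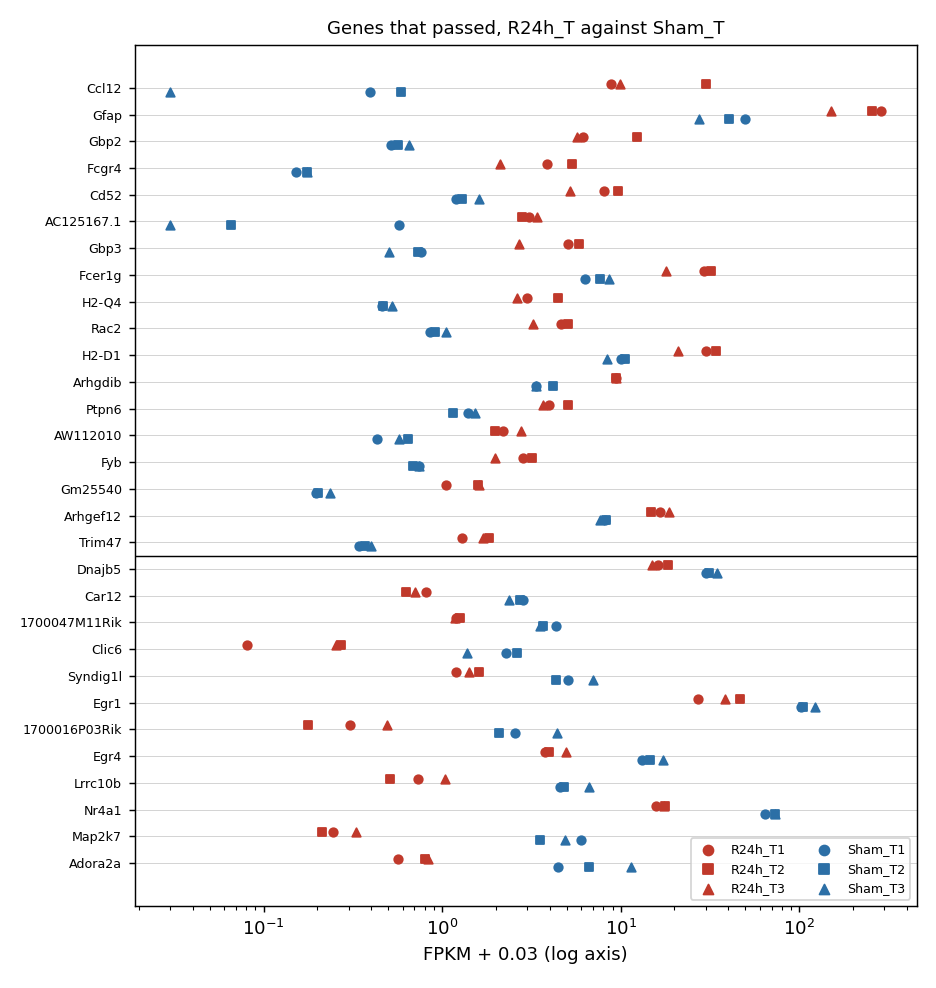
FPKM (log axis, with 0.03 added so that 0 can be drawn) of the 30 genes that passed, one row per gene and one point per library, with R24h_T (red) above Sham_T (blue) in each row. Genes above the line rose and genes below it fell; in none of the 30 do the groups overlap, and R24h_T3 (triangle) is the lowest red point for Gfap, Fcgr4, Gbp3 and H2-D1.

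Nr4a1 and the immediate early genes are described first because the call for Nr4a1 was the one that held with any single library left out. Nr4a1 (ENSMUSG00000023034), an orphan nuclear receptor induced by calcium and CREB in active neurons, was at 15.7, 17.6 and 17.5 FPKM in R24h_T, against 64.1, 73.0 and 72.9 FPKM in Sham_T. The 3 occlusion libraries lay within 2 FPKM of each other, R24h_T3 included, and far below all sham libraries. Nr4a1 fell by 1.98 on the log2 scale (SE 0.12, limma adjusted p = 0.00334), to 0.242 times the sham mean of 70.0 ± 5.10 FPKM. The difference stayed between -2.06 and -1.93 over every alternative run, and it missed the threshold only without both Sham_T1 and Sham_T2 (adjusted p = 0.0703), a fit left with 1 sham library.

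Egr4, a zinc finger transcription factor of the early growth response family, was at 3.73, 3.92 and 4.92 FPKM in R24h_T, against 13.1, 14.5 and 17.3 FPKM in Sham_T. Each occlusion value was under every sham value, and Egr4 fell by 1.62 (SE 0.15, limma adjusted p = 0.0240). Egr1, the family member most used as a marker of neuronal activity, was at 26.9, 46.4 and 38.4 FPKM in R24h_T and at 103, 105 and 122 FPKM in Sham_T. The groups were well apart and Egr1 fell by 1.57 (SE 0.20, limma adjusted p = 0.0441). The transcript 1700016P03Rik, whose model holds the genes of the CREB-induced microRNAs Mir212 and Mir132, was at 0.276, 0.146 and 0.462 FPKM in R24h_T, against 2.52, 2.05 and 4.34 FPKM in the sham libraries. It fell by 1.58 (limma adjusted p = 0.0495). Dnajb5, a co-chaperone of the DnaJ family, fell by 0.92 (limma adjusted p = 0.0470), with 14.9 to 18.3 FPKM in R24h_T and 30.1 to 34.4 FPKM in Sham_T.

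Promoters of Nr4a1 and Egr4 are shown because both fell and both hold the CREB half-site CGTCA. The sequences are the 250 bases before the annotated start (RefSeq, GRCm38.p6), 5′ to 3′ on the gene's strand, with each CGTCA in capitals; both strands were searched and the half-site was added after the sequences had been seen.
Nr4a1: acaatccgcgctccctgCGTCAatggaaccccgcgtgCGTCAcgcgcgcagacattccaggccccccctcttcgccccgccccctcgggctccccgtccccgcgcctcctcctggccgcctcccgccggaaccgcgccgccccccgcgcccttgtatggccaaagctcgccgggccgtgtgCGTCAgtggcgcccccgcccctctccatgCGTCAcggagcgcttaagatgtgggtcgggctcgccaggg
Egr4: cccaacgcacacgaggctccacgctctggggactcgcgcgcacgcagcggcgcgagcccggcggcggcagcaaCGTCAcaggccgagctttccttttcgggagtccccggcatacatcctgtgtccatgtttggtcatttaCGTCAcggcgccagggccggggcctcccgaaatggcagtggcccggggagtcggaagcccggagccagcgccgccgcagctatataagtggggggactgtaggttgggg
The Nr4a1 stretch is chr15:101266596-101266845 on the plus strand and holds 4 half-sites, which begin 233, 213, 69 and 40 bases before the start. Egr4 (chr6:85513590-85513839, minus strand) has 2, at 177 and 109 bases. The half-site lay in 14 of the 15 tested immediate early genes with a promoter in the table (93.3%), against 30.9% of all 9537 tested genes with one. The full element TGACGTCA, which contains the half-site on each strand, lay in 1 of the 15 (6.67%), against 3.14% of all. Among the genes that passed and had a promoter, the half-site lay in 3 of 7 that fell (42.9%) and in 3 of 14 that rose (21.4%). The share in the immediate early genes thus describes that list, and the part of the half-site in the falls was not tested.

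Over the list of activity-induced immediate early genes, 20 of 21 members were tested, 3 fell, none rose, and 12 lay below sham without overlap, against 8.28% of all genes. In 2 of the 20 the difference was positive, at most 1.21, against 59.8% of all genes with a positive one. The median difference was -0.75, and the median deviation from sham was -0.81, -0.61 and -0.96 in R24h_T. R24h_T3, the occlusion library that correlated best with sham, had the lowest median here. Members that did not pass were less even. Arc, a postsynaptic effector that shapes glutamate receptor trafficking, was at 15.0, 67.2 and 17.6 FPKM in R24h_T, against 118, 114 and 109 FPKM in the sham libraries; R24h_T2 was the high one, and the difference of -2.07 had an adjusted p of 0.151 (limma). Fos, the AP-1 subunit, was at 8.03, 19.4 and 5.25 FPKM in R24h_T and at 21.7 to 23.3 FPKM in Sham_T (-1.17, limma adjusted p = 0.253). Npas4, a neuron-specific activity-induced factor, overlapped between the groups with 2.02, 24.3 and 8.50 FPKM in R24h_T and 13.1 to 17.5 FPKM in Sham_T. Most stress-linked relatives of these genes went the other way without passing. Myc was at 3.20, 5.46 and 3.09 FPKM in R24h_T and at 0.920 to 1.29 FPKM in Sham_T. Of 15 AP-1 and stress-induced factors, 9 were tested and 7 of these had a positive difference, against 59.8% of all genes. In 5 of the 9 the R24h_T values lay above sham without overlap, against 13.9% of all genes.

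**Figure D2:**
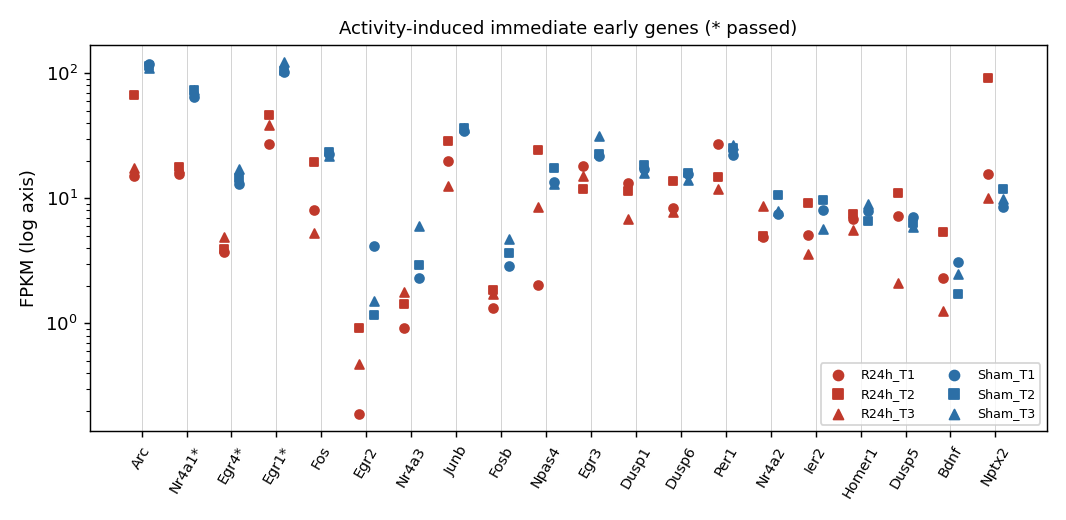
FPKM (log axis) of the 20 tested activity-induced immediate early genes, ordered by their log2 difference, with R24h_T (red) left of Sham_T (blue) for each gene; the asterisk marks the 3 that passed. Arc shows the largest difference but has 1 high occlusion library, R24h_T2 at 67.2 FPKM, while the Nr4a1 points lie close together in each group.

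Of the interferon response and antigen presentation lists, 2 and 1 members passed, all of them higher after occlusion. Gbp2 (ENSMUSG00000028270), a guanylate-binding GTPase of cell-autonomous defence, was at 6.15, 12.3 and 5.65 FPKM in R24h_T, against 0.485, 0.538 and 0.624 FPKM in Sham_T. No sham library reached 1 FPKM, and Gbp2 rose by 2.47 (SE 0.25, limma adjusted p = 0.0277). Gbp3, of the same family, rose by 1.70 (limma adjusted p = 0.0470), with 5.03, 5.81 and 2.66 FPKM in R24h_T, against 0.477 to 0.731 FPKM in Sham_T. Of the interferon response list, 17 of 22 members were tested, 2 rose and none fell. In 16 of them the 3 occlusion values lay above the 3 sham values, against 13.9% of all genes; 8 of the 17 were under 1 FPKM in every sham library and were thus tested only because R24h_T was high. The median difference was 1.16, and the median deviations of 1.18, 1.65 and 0.71 in R24h_T show R24h_T2 highest and R24h_T3 lowest. Ifitm3, a membrane protein that blocks virus entry, had the largest difference in the list (3.08) and did not pass (limma adjusted p = 0.0522), at 68.9, 53.9 and 16.7 FPKM in R24h_T and at 3.45 to 4.23 FPKM in Sham_T. Without R24h_T3, where 996 of all 13509 genes passed, 15 of the 17 did. Without R24h_T2, where 8 of all genes passed, 1 did, and without R24h_T1 or Sham_T3 none did.

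The promoters of the 2 interferon-responsive genes that passed are shown for the interferon response element GAAANNGAA, in capitals on whichever strand it lies (RefSeq, GRCm38.p6, 250 bases before the start).
Gbp2: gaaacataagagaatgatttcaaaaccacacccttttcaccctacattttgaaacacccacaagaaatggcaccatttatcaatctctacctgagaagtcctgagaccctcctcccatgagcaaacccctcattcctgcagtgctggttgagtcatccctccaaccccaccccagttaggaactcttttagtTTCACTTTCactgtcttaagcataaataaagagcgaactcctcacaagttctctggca
Gbp3: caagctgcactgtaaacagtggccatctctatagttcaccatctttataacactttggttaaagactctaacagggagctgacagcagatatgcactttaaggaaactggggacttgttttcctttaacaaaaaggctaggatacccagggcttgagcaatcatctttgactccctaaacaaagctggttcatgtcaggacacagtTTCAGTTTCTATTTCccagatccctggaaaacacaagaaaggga
Gbp2 lies at chr3:142620413-142620662 and has 1 match, 58 bases before the start; Gbp3 lies at chr3:142559794-142560043, the first of 2 entries in the table, and has 2 overlapping matches. Both genes are on the plus strand and both matches read as the reverse complement. The element was found in 9 of 16 tested list members with a promoter (56.3%), against 6.99% of all tested genes with one. Among the genes that passed, it lay in 4 of 14 that rose (28.6%) and in 2 of 7 that fell (28.6%). Egr4 was 1 of those that fell, and the match in its sequence above is not marked. The part of the element in the rises was not tested.

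Class I histocompatibility genes, which present peptides to CD8 T cells, rose in 2 cases. H2-D1 was at 30.2, 34.4 and 21.0 FPKM in R24h_T, against 9.97, 10.6 and 8.34 FPKM in Sham_T. It rose by 1.45 (SE 0.19, limma adjusted p = 0.0469), with no overlap. H2-Q4 rose by 1.55 (limma adjusted p = 0.0277), with 2.94, 4.45 and 2.60 FPKM in R24h_T and 0.428 to 0.497 FPKM in Sham_T. Class I genes are close copies of each other, so reads could be split between them. In the antigen presentation list 8 of 13 members were tested, 1 rose, none fell and 7 lay above sham without overlap, against 13.9% of all genes. B2m, the light chain of class I, did not pass (0.99, limma adjusted p = 0.0767), with 213, 235 and 169 FPKM in R24h_T and 89.6 to 116 FPKM in Sham_T. AW112010, a long noncoding RNA of activated immune cells, rose by 1.11 (limma adjusted p = 0.0377), with 1.95 to 2.72 FPKM in R24h_T and 0.400 to 0.617 FPKM in Sham_T.

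Reactive astrocyte genes were led by Gfap, the intermediate filament that builds up in astrocytes after injury. Gfap (ENSMUSG00000020932) was at 287, 255 and 150.1 FPKM in R24h_T, against 49.5, 40.2 and 27.5 FPKM in Sham_T. Its lowest occlusion library was above its highest sham library by a wide margin. Gfap rose by 2.52 (SE 0.29, limma adjusted p = 0.0330). It was the 1 of 17 tested reactive astrocyte genes, of 25 in the list, that passed. None fell, and 16 lay above sham without overlap, against 13.9% of all genes, though 10 of the 17 were under 1 FPKM in every sham library. Larger differences came with larger spread. Serpina3n, a secreted protease inhibitor of reactive astrocytes, had the largest positive difference of all genes tested (4.43) and missed the threshold (limma adjusted p = 0.0522). It was at 348, 299 and 51.4 FPKM in R24h_T, against 8.94, 6.35 and 6.43 FPKM in Sham_T. Timp1, an inhibitor of matrix metalloproteinases, was at 18.2, 29.5 and 5.66 FPKM in R24h_T and at 0.522 to 0.728 FPKM in Sham_T (3.30, limma adjusted p = 0.0522). Lcn2, the iron-carrier-binding lipocalin, was at 28.4, 15.4 and 2.31 FPKM in R24h_T and at 0.140 to 0.244 FPKM in Sham_T (3.29, limma adjusted p = 0.115). In each of these 3 genes R24h_T3 was the lowest occlusion library but was still above every sham library. The median deviation of the list was 1.90, 2.72 and 0.84 in R24h_T. Without R24h_T3, where 996 of all 13509 genes passed, 15 of the 17 did. In the fits without R24h_T1, R24h_T2 or Sham_T3 none did. Homeostatic astrocyte genes had a median difference of -0.12, with 14 tested and none past the threshold.

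Among signalling ligands, Ccl12, a monocyte-attracting chemokine, was the one that rose. Ccl12 (ENSMUSG00000035352) was at 8.81, 29.8 and 9.90 FPKM in R24h_T, against 0.363 and 0.557 FPKM in Sham_T1 and Sham_T2 and a listed 0 in Sham_T3. R24h_T2 was the highest, and here R24h_T3 was not below R24h_T1. Ccl12 rose by 3.53 (SE 0.42, limma adjusted p = 0.0375), the largest rise that passed. Of 26 cytokine and chemokine ligands, 11 were tested, and 6 of these lay above sham without overlap, against 13.9% of all genes; 5 of the 11 were under 1 FPKM in every sham library. Ccl2, its close relative, did not pass (2.95, limma adjusted p = 0.184), with 10.7, 22.6 and 1.06 FPKM in R24h_T and 0.0531 to 0.108 FPKM in Sham_T. Ccl3, Il1b, Il6 and Tnf, which encode early inflammatory ligands, did not reach the level for testing. Ccl3 was at 9.48, 63.3 and 0.666 FPKM in R24h_T and at 0.158 to 0.255 FPKM in Sham_T. Il1b was at 0.748, 7.80 and 0.466 FPKM in R24h_T and at 0.0633 to 0.127 FPKM in Sham_T. R24h_T2 was the highest library for both, and R24h_T1 was also far above sham for Ccl3.

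None of 15 tested cytokine and chemokine receptors, of 24 in the list, passed. Of the 15, 11 lay above sham without overlap, against 13.9% of all genes, though 4 were under 1 FPKM in every sham library. Tnfrsf1a, the main receptor of tumour necrosis factor, was at 20.8, 23.0 and 7.6 FPKM in R24h_T, against 2.82 to 3.05 FPKM in Sham_T (2.07, limma adjusted p = 0.0810). The JAK-STAT and NF-kB list had a median difference of 0.66 and no call among 14 tested members. Socs3, the feedback inhibitor of STAT3 signalling, was at 15.1, 18.2 and 2.14 FPKM in R24h_T and at 1.08 to 1.29 FPKM in Sham_T (limma adjusted p = 0.208). The medians of that list, 1.01, 0.83 and 0.08 in R24h_T, put R24h_T3 close to sham. Without R24h_T3, where 996 of all 13509 genes passed, 10 of 15 receptors and 10 of 14 signalling genes did; without R24h_T1, R24h_T2 or Sham_T3 none of either list did.

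Another 7 of the 18 rises were genes known from myeloid cells and other leukocytes. Fcgr4, an activating receptor for IgG on monocytes and neutrophils, was at 3.85, 5.32 and 2.07 FPKM in R24h_T, against 0.121, 0.144 and 0.144 FPKM in Sham_T. It rose by 2.0 (SE 0.24, limma adjusted p = 0.0377). Fcer1g, the signalling chain of Fc receptors, rose by 1.66 (limma adjusted p = 0.0469), with 29.4, 31.9 and 18 FPKM in R24h_T and 6.30 to 8.54 FPKM in Sham_T. Cd52, a small glycoprotein of leukocyte surfaces, rose by 1.85 (limma adjusted p = 0.0277), with 5.17 to 9.57 FPKM in R24h_T and 1.16 to 1.58 FPKM in Sham_T. Its model overlaps that of Crybg2 on the other strand, and the strand setting of the counting is not given in the sources used here. Rac2, a small GTPase of blood cells, rose by 1.45 (limma adjusted p = 0.0277), with 3.20 to 5.05 FPKM in R24h_T and 0.827 to 1.02 FPKM in Sham_T. Arhgdib, which holds small GTPases inactive in leukocytes, rose by 1.18 (limma adjusted p = 0.0277) and was the most even of all, at 9.44, 9.34 and 9.44 FPKM in R24h_T and at 3.32 to 4.14 FPKM in Sham_T. Ptpn6, the phosphatase SHP-1, rose by 1.15 (limma adjusted p = 0.0405), with 3.62 to 5.02 FPKM in R24h_T and 1.12 to 1.49 FPKM in Sham_T. Fyb, an adaptor of T cells and myeloid cells, rose by 1.09 (limma adjusted p = 0.0497), with 1.96 to 3.15 FPKM in R24h_T and 0.660 to 0.711 FPKM in Sham_T. In each of these 7 genes the groups did not overlap. Fcgr4 and Fyb were under 1 FPKM in every sham library and were thus tested only because R24h_T was high.

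Monocyte and macrophage markers had 5 of 13 members tested. All 5 lay above sham without overlap, against 13.9% of all genes, and none passed. Lyz2, a lysozyme of these cells, was at 36.2, 51.6 and 17.4 FPKM in R24h_T and at 5.58 to 6.46 FPKM in Sham_T (2.24, limma adjusted p = 0.0576). Summed over all 13 markers the level was 188, 181 and 53.4 FPKM in R24h_T, against 22.8 to 24.3 FPKM in Sham_T. The 11 neutrophil markers summed to 34.3, 30.5 and 9.04 FPKM in R24h_T, against 2.38 to 3.09 FPKM in Sham_T, where 5 or 6 of them were listed at 0. S100a9, a calcium-binding protein that neutrophils hold in quantity, was at 13.9, 15.0 and 2.93 FPKM in R24h_T and at 0.231 to 0.403 FPKM in Sham_T (2.93, limma adjusted p = 0.0766). The 12 lymphocyte markers summed to 1.89 to 3.92 FPKM in R24h_T and 2.55 to 4.44 FPKM in Sham_T. Only 1 of the 12 was tested, and it was lower in R24h_T without passing (-1.19). Untested members did not all share its direction. Ptprc was at 0.590, 0.858 and 0.493 FPKM in R24h_T and at 0.151 to 0.155 FPKM in Sham_T, while Trac overlapped between the groups. The sums thus do not show that single markers were level. How far such cells account for the rises was not tested, and in bulk cortex more cells of a type and more RNA per cell cannot be told apart.

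The 12 homeostatic microglia genes had a median difference of 0.17, with none past the threshold and 3 above sham without overlap, against 13.9% of all genes. P2ry12, the purine receptor of resting microglia, was at 6.20, 3.43 and 13 FPKM in R24h_T and at 12.6 to 16.8 FPKM in Sham_T (-1.04, limma adjusted p = 0.292). Of 15 tested disease-associated microglia genes, of 20 in the list, none passed and 7 lay above sham without overlap, against 13.9% of all genes. Spp1, osteopontin, which macrophages also make, was far higher in R24h_T1 and R24h_T2 than in R24h_T3, at 162, 337 and 11.5 FPKM in R24h_T and at 3.00 to 5.95 FPKM in Sham_T (4.0, limma adjusted p = 0.186). Complement genes had 10 of 12 tested members above sham without overlap, against 13.9% of all genes, and no call; 3 of the 12 were under 1 FPKM in every sham library. C1qb, a chain of the classical pathway's first component made by microglia, was at 108, 69.1 and 62.0 FPKM in R24h_T and at 30.9 to 35.8 FPKM in Sham_T (1.17, limma adjusted p = 0.0893). Serping1, the C1 inhibitor, was at 11.3, 8.46 and 4.70 FPKM in R24h_T and at 0.704 to 1.69 FPKM in Sham_T (1.99, limma adjusted p = 0.0522).

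The heat shock, NRF2 and unfolded protein response lists were highest in R24h_T2, without a call. Hspa1a, an inducible chaperone of the HSP70 family, was at 5.56, 209 and 3.91 FPKM in R24h_T, against 3.05, 3.20 and 2.54 FPKM in Sham_T. Only R24h_T2 was far from sham, and the difference of 2.27 did not pass (limma adjusted p = 0.431). Its near-identical copy Hspa1b showed the same shape, at 6.84, 354 and 6.20 FPKM in R24h_T and at 3.52 to 3.84 FPKM in Sham_T. Hspb1, a small heat shock protein, was also high in R24h_T1, at 17.9, 40.4 and 2.74 FPKM in R24h_T and at 0.495 to 1.14 FPKM in Sham_T (3.02, limma adjusted p = 0.169). Bag3, a co-chaperone, was at 9.63, 15.1 and 4.46 FPKM in R24h_T and at 2.39 to 2.95 FPKM in Sham_T (1.42, limma adjusted p = 0.164). Of the 17 heat shock genes, all tested, none passed and 11 lay above sham without overlap, against 13.9% of all genes. Their median deviation was 0.25, 1.82 and 0.09 in R24h_T. The median difference, 0.71, was 0.16 without R24h_T2. The heat shock element GAANNTTC lay in 6 of 12 of these promoters (50.0%) and in 5.89% of those of all tested genes. Hmox1, haem oxygenase 1, which breaks down haem, was at 21.9, 180.0 and 18.6 FPKM in R24h_T, against 2.33 to 2.91 FPKM in Sham_T. R24h_T2 was again the highest, but the other 2 libraries were also well above sham (3.58, limma adjusted p = 0.117). NRF2 targets had a median deviation of 0.54, 1.22 and 0.04 in R24h_T, and unfolded protein response genes one of 0.19, 0.91 and 0.05, with no call in either list. Endothelial markers followed another library: their medians were 2.28, 0.96 and 0.55 in R24h_T, and Cldn5, a tight junction protein of brain vessels, was at 20.7, 4.76 and 4.52 FPKM there and at 1.17 to 1.44 FPKM in Sham_T (1.97, limma adjusted p = 0.164).

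**Figure D3:**
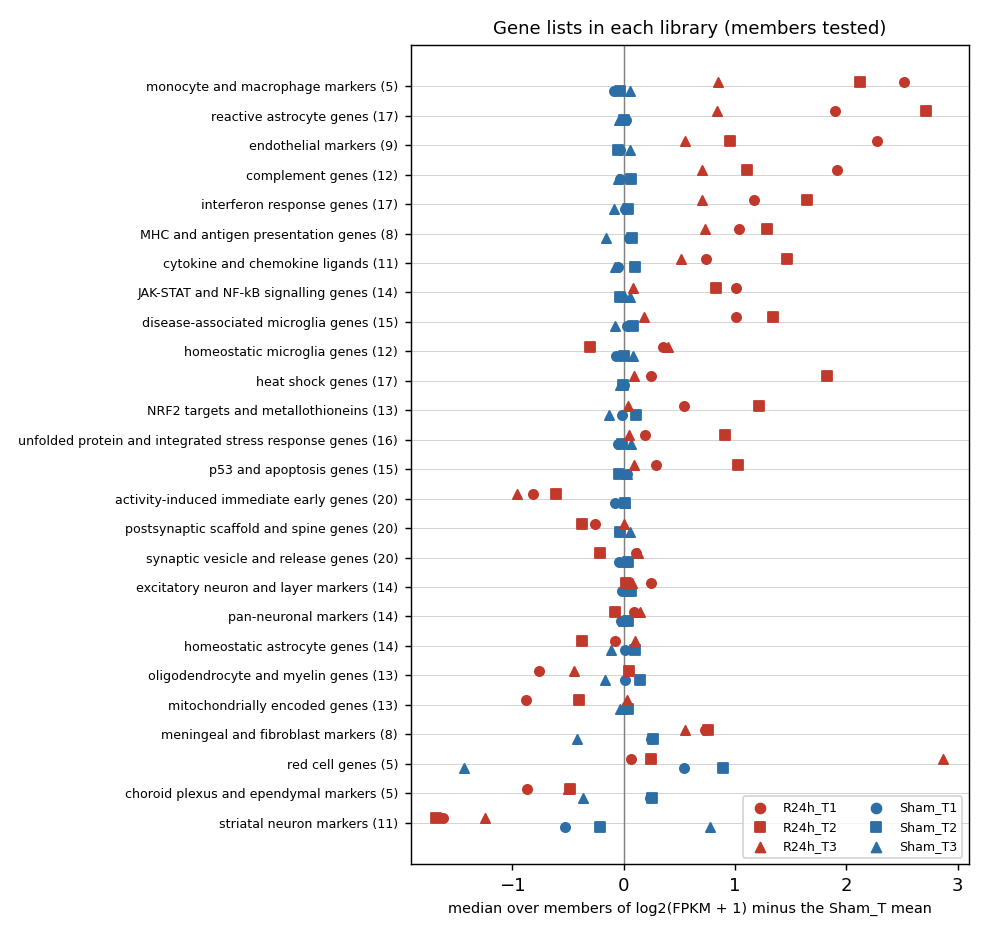
Median over the tested members of a list (number in brackets) of log2(FPKM + 1) minus the mean of the 3 Sham_T libraries, with R24h_T (red) above Sham_T (blue) in each row. R24h_T3 (red triangle) lies at 0.84 for reactive astrocyte genes where R24h_T2 lies at 2.72, heat shock genes are highest in R24h_T2 at 1.82, against 0.25 in R24h_T1, and immediate early genes are low in all 3 occlusion libraries.

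The remaining falls included genes of striatal neurons. Adora2a, the adenosine A2A receptor of striatal projection neurons, was at 0.533, 0.772 and 0.800 FPKM in R24h_T, against 4.42, 6.59 and 11.4 FPKM in Sham_T. It fell by 2.24 (SE 0.28, limma adjusted p = 0.0405). Of 12 striatal markers, 11 were tested; 1 fell, and 8 lay below sham without overlap, against 8.28% of all genes, with a median difference of -1.54. Drd2, the dopamine D2 receptor, was at 0.914, 0.868 and 0.684 FPKM in R24h_T and at 5.13, 7.65 and 16.8 FPKM in Sham_T (-2.43, limma adjusted p = 0.0522). Adora2a and Drd2 were under 1 FPKM in every R24h_T library and were thus tested only because Sham_T was high. Summed over all 12 markers the level was 128, 85.3 and 101 FPKM in R24h_T, against 161, 191 and 357 FPKM in Sham_T, and no marker was at 0. The sham libraries thus differed among themselves, with Sham_T3 the highest. The samples are labelled as cortex, and how much striatum each held was not tested. Lrrc10b fell by 1.87 (limma adjusted p = 0.0240), with 0.483 to 1.01 FPKM in R24h_T and 4.56 to 6.64 FPKM in Sham_T. Syndig1l, which encodes a small membrane protein abundant in striatum, fell by 1.42 (limma adjusted p = 0.0377), with 1.17 to 1.57 FPKM in R24h_T and 4.33 to 6.93 FPKM in Sham_T. Car12, a carbonic anhydrase, fell by 1.10 (limma adjusted p = 0.0277), with 0.601 to 0.783 FPKM in R24h_T and 2.34 to 2.82 FPKM in Sham_T.

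Clic6, a chloride channel protein of the choroid plexus, fell by 1.37 (SE 0.18, limma adjusted p = 0.0469), with 0.0502, 0.240 and 0.225 FPKM in R24h_T, against 2.26, 2.59 and 1.34 FPKM in Sham_T. The 10 choroid plexus and ependymal markers summed to 5.22, 15.4 and 14.6 FPKM in R24h_T, against 642, 518 and 15.4 FPKM in Sham_T. Ttr, transthyretin, made up most of the sum in Sham_T1 and Sham_T2 and was at 0.892, 8.32 and 8.52 FPKM in R24h_T and at 624, 501 and 7.39 FPKM in Sham_T. Its groups overlapped (-4.65, limma adjusted p = 0.271), and 1 marker was at 0 in each occlusion library. The pituitary hormone gene Gh was also high in the same sham libraries, at 0.140, 0.171 and 0.0705 FPKM in R24h_T and at 47.3, 115 and 5.27 FPKM in Sham_T. Haemoglobin varied in another pattern: Hbb-bs was at 8.68, 9.37 and 79.4 FPKM in R24h_T and at 15.4, 20.1 and 0.944 FPKM in Sham_T. The part of such tissue in the results was not tested. Without both Sham_T1 and Sham_T2, 7 genes passed, 2 higher and 5 lower, and 2 of these were among the 30; that fit has 1 sham library, which is assumed to vary like the R24h_T libraries.

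Of the other calls, Map2k7 fell by 2.21 (limma adjusted p = 0.0133) in one of its 2 models, ENSMUSG00000109061, at 0.182 to 0.298 FPKM in R24h_T and 3.49 to 5.96 FPKM in Sham_T. The other model, ENSMUSG00000002948, overlaps it and was at 17, 14.0 and 9.02 FPKM in R24h_T, against 7.86 to 8.21 FPKM in Sham_T (0.62, limma adjusted p = 0.265). Over all 18 libraries the first model was either at 0.0621 to 1.40 FPKM or at 3.39 to 6.88 FPKM, in 12 and 6 libraries, and 3 of the 6 groups had libraries at both levels. AC125167.1, annotated as a microRNA gene inside the collagen gene Col3a1, rose by 1.79 (limma adjusted p = 0.0277), with 2.78 to 3.35 FPKM in R24h_T and 0 to 0.545 FPKM in Sham_T, and Gm25540, another inside Slc16a6, rose by 1.0 (limma adjusted p = 0.0469). Reads of the host genes could be counted there. Arhgef12, a guanine nucleotide exchange factor, rose by 0.97 (limma adjusted p = 0.0441), with 14.8 to 18.6 FPKM in R24h_T and 7.59 to 8.28 FPKM in Sham_T. Trim47, a ubiquitin ligase whose model overlaps Trim65, rose by 0.94 (limma adjusted p = 0.0469), with 1.26 to 1.81 FPKM in R24h_T and 0.314 to 0.367 FPKM in Sham_T. The transcript 1700047M11Rik fell by 1.13 (limma adjusted p = 0.0277), with 1.14 to 1.23 FPKM in R24h_T and 3.49 to 4.29 FPKM in Sham_T. In all, 16 of the 30 genes overlap another gene model, 8 on the same strand and 10 on the other. The share over all genes was not counted.

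Of the synaptic and channel lists, none of 20 tested vesicle and release genes, 20 postsynaptic genes, 24 glutamate and GABA receptor genes or 30 potassium channel genes passed, and their median differences were -0.02, -0.22, -0.10 and 0.10. In the postsynaptic list 2 of 20 members had a positive difference, against 59.8% of all genes. Only 2 lay below sham without overlap (10%, against 8.28% of all genes). Slc17a7, the vesicular glutamate transporter of cortical excitatory neurons, was at 141, 96.3 and 135 FPKM in R24h_T and at 111 to 120.2 FPKM in Sham_T, overlapping. The 14 pan-neuronal markers summed to 1322 to 1520 FPKM in R24h_T and 1346 to 1448 FPKM in Sham_T. Myelin genes had 4 of 13 members below sham without overlap, against 8.28% of all genes, and no call; Mog, a glycoprotein of the outer myelin sheath, was at 7.22, 13.7 and 11 FPKM in R24h_T and at 15.4 to 22 FPKM in Sham_T (-0.77, limma adjusted p = 0.228).

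The aryl hydrocarbon receptor pathway, to which Tiparp belongs, had 6 of 10 members tested and no call. Above sham without overlap lay 1 of the 6 (16.7%, against 13.9% of all genes). Ahr, the receptor, was at 1.47, 1.52 and 1.27 FPKM in R24h_T and at 0.890, 0.817 and 1.29 FPKM in Sham_T, a difference of 0.28 (limma adjusted p = 0.381). Its partner Arnt differed by -0.11. Nqo1, a quinone reductase that the receptor and NRF2 both induce, was at 2.76, 2.26 and 1.71 FPKM in R24h_T and at 1.48 to 2.41 FPKM in Sham_T, a difference of 0.07 whose sign depended on single libraries. Lgals3bp, a secreted galectin-binding protein, had the one larger difference (1.76, limma adjusted p = 0.0675), with 12.3 to 26.0 FPKM in R24h_T and 3.62 to 6.41 FPKM in Sham_T. Whether the receptor has a part in that difference was not tested. Of the members under the level for testing, Cyp1b1, a cytochrome P450, was at 4.81, 6.03 and 0.782 FPKM in R24h_T and at 0.153 to 0.361 FPKM in Sham_T, while Cyp1a1, Ahrr and Aldh3a1 stayed under 1 FPKM in all 6 libraries.

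By the functions deposited with the genes, inflammatory response had 127 tested genes, of which 1 rose, none fell, and 44 lay above sham without overlap (34.6%, against 13.9% of all). Innate immune response had 63 of 150 above sham without overlap (42.0%), and neutrophil chemotaxis had 15 of 26 (57.7%), with 2 rises. Of these terms 16, 15 and 7 genes were under 1 FPKM in every sham library and were tested only because R24h_T was high. For chemical synaptic transmission the share was 12 of 102 (11.8%) above and 11 of 102 (10.8%) below, with no call. Over all genes the shares were 13.9% and 8.28%. Protein folding had 91 tested genes, of which none rose and 1 fell, the DnaJ gene Dnajb5. The term had a median deviation from sham of 0.07 in R24h_T1 and 0.44 in R24h_T2, and R24h_T2 was also the library with the highest heat shock genes. These terms share genes with each other and with the lists above.

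The same occlusion and time were studied in the control arm, with 3 R24h_C and 3 Sham_C libraries from animals given AAV-SYN-shRNA-Con instead. There 3335 of 13880 genes passed (24%). A test of the difference between the responses, (R24h_T minus Sham_T) minus (R24h_C minus Sham_C), called 0 of 14589 genes in limma, with 1593 at an unadjusted p under 0.05 and a lowest adjusted p of 0.415. No gene was thus shown to respond differently in the arms. Among the genes named above, Nr4a1 fell by 1.98 in the Tiparp arm and by 1.94 in the control arm, and Gbp2 rose by 2.47 and by 3.40. Adora2a differed by -2.24 in the Tiparp arm and by -0.52 in the control arm, a contrast with an unadjusted p of 0.0783 for the difference (limma). That limma p was lower for other genes, among them Map2k7 (0.00599), Gbp2 (0.00999), Syndig1l (0.0155) and Gfap (0.0168). For Nr4a1 it was 0.807, and no gene passed after adjustment. The Map2k7 model that fell differed by -2.21 in the Tiparp arm and by 0.65 in the control arm. The control arm differences of Lrrc10b, Syndig1l and Car12 were -0.17, -0.17 and 0.09, and none of them passed there. Synpo, an actin-binding protein of dendritic spines, was among the genes with the lowest p, at 9.43, 14.7 and 17.6 FPKM in R24h_T and at 18.7, 23.2 and 21.6 FPKM in Sham_T. In the control arm Synpo was at 4.82, 5.88 and 5.04 FPKM in the R24h_C libraries and at 31.7, 28.4 and 23.8 FPKM in the Sham_C libraries. The difference between its responses was 1.60 (adjusted p = 0.415 in limma), and it passed when R24h_T1 was left out. Snph, an anchor of axonal mitochondria, was at 28.5, 28.1 and 33.4 FPKM in the R24h_T libraries and at 16.3 to 17.8 FPKM in Sham_T, but at 16.5 to 23.7 FPKM in R24h_C and 21.3 to 27.9 FPKM in Sham_C (difference 1.14, adjusted p = 0.415 in limma).

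**Figure D4:**
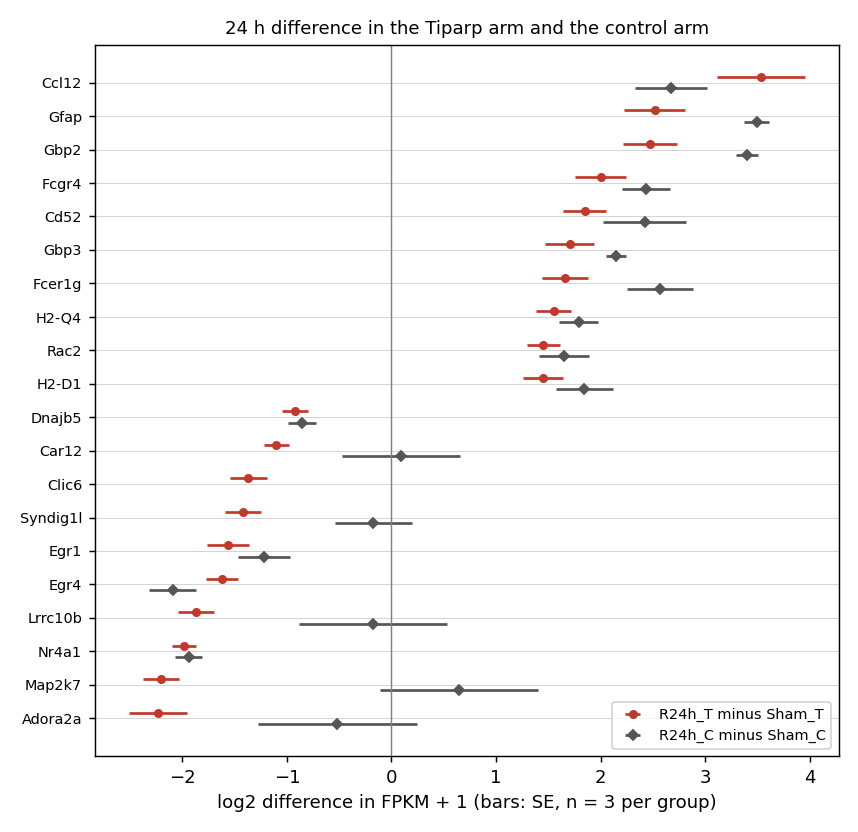
Log2 difference in FPKM + 1 at 24 h for the 10 largest named rises and falls that passed in the Tiparp arm, with R24h_T minus Sham_T (red circles) above R24h_C minus Sham_C (grey diamonds) and bars for the SE (3 libraries per group). Nr4a1 lies at -1.98 and -1.94 in the arms, while Adora2a lies at -2.24 and -0.52 with a wide bar in the control arm; Clic6 was not tested in the control arm, and no difference between the arms passed.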

How the data were processed

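RNA was poly(A)-selected and made into strand-marked paired-end libraries, per the labels' protocols. HISAT, StringTie, edgeR and the build mm9 are named in the submitters' processing notes, without versions. The deposited values are FPKM per gene, normalised by the authors for transcript length and library total; read counts, the depth of each library and the strand used in counting are not given in the sources used here, so no counting interval could be given. Between 3.35% and 4.83% of low genes sat at the single value used for the rough depth ratio.

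Here FPKM were taken as log2(FPKM + 1), which understates changes of low genes. Genes with at least 1 FPKM in at least 3 of the 6 libraries were tested with limma 3.58.1 (R 4.3.3; trend, empirical Bayes, two-sided), with Benjamini-Hochberg adjustment over all genes tested and a threshold of 0.05. The limma fits were also run on simulated data in which a gene had the same spread in every group. That check does not cover the unequal spread of R24h_T and Sham_T. The difference between the arms was an interaction over 12 libraries. Of the symbols, 62 occur more than once. Promoters came from RefSeq (GRCm38.p6). Gene overlaps were read from the coordinates and strands of a mouse annotation of another build than the files', with genes matched by identifier.

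Named by rule were the 10 largest rises and falls that passed, up to 4 passing members of each list or the 2 with the lowest p, the aryl hydrocarbon receptor genes, and 10 genes for the arms, a few of which are not reported here; other genes were chosen after their values were seen. The comparison and the 55 lists were chosen with earlier results of these data known. Alternatives were a pseudocount of 0.1, no filter on low values, median-ratio scaling, array weights, a replicate block, a joint fit of 18 libraries, and leaving out libraries.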

Additional observations from a re-analysis of the deposited data

How the results depend on the processing

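The number of genes that passed depended on the processing, while all 30 kept their sign in every alternative that tested them. Against the 30 calls reported (18 higher and 12 lower), a pseudocount of 0.1 gave 65, no filter on low values gave 1, median-ratio scaling gave 48, array weights gave 79 (65 higher and 14 lower), and all 18 libraries in 1 fit gave 68 (33 higher and 35 lower). Leaving out 1 library gave between 1 and 996: 1 without R24h_T1, 8 without R24h_T2, 996 without R24h_T3, 14 without Sham_T1, 4 without Sham_T2 and 2 without Sham_T3. Without Sham_T1 and Sham_T2 together it was 7, with the spread taken from R24h_T alone. The cause of these changes was not tested. Of the 30 genes, 29 passed with the pseudocount of 0.1, 28 of 29 tested with median-ratio scaling, 27 with array weights and 13 with all 18 libraries. Nr4a1 passed with each library left out in turn, and Map2k7 in 4 of those 6 fits.

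The fit with the replicate number as a block gave 70 calls, 52 higher and 18 lower, of which 25 were among the 30. The numbers are not known to pair the libraries: deviations of same-numbered libraries correlated at 0.0493, 0.0678 and -0.0152, and R24h_T3 did not correlate best with its own number. With the block, Tiparp differed by -0.17 and the arms in 0 genes.

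The Tiparp difference stayed between -0.31 and -0.02 and never passed. The difference between the arms gave 0 calls in every alternative but 3: 2 without R24h_T1, 1 without Sham_T1 and 23 without R24h_C2, so leaving out 1 library gave between 0 and 23. With 1 library left out the small difference of Nqo1 lay between -0.080 (without Sham_T3) and 0.19 (without R24h_T3), and was -0.04 without R24h_T1; that of Slc17a7 lay between -0.013 (without R24h_T1) and 0.26 (without R24h_T2). Median differences of reactive astrocyte genes ranged from 1.27 to 2.55, of interferon response genes from 0.87 to 1.76, of immediate early genes from -0.87 to -0.68 and of striatal markers from -2.40 to -1.10. Unknown read depth limits what can be said of genes near 0, and 3 libraries per group with unequal R24h_T libraries limit all the calls.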
